A study of Mus musculus with 222 samples.

Results

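Single cells sorted as germ cells from XX and XY mouse embryos labelled Eed -/- (ECKO) were compared at E12.5. At this stage XX germ cells begin to turn towards meiosis and XY germ cells do not. The cells compared were the 62 kept ECKO cells among 96 ECKO cells sorted: 13 from each of 2 XX embryos and 18 from each of 2 XY embryos, here called embryos A and B of each sex. They were chosen by label and depth, as the ECKO cells of the XX and of the XY count tables that held at least 50000 counts and at least 1500 genes with a count. In all, 127 of 192 sorted E12.5 cells met that rule.

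All embryos were of the C57BL/6;129S1/SvlmJ strain. They came from crosses of females homozygous for a floxed Eed allele that carry OG, an Oct4-GFP reporter, with males heterozygous for that allele that carry BC, a Blimp1-Cre driver active in primordial germ cells. By that cross each embryo received a floxed Eed allele from its mother. ECKO embryos are labelled Eed -/- and Control embryos wild type, with no other allele of the Controls given. GFP-positive cells, labelled primordial germ cells, were sorted 24 to an embryo, so selection rested on a reporter of Pou5f1 regulatory sequence. Libraries were made with Smart-seq2, a full-length protocol without molecular identifiers. There were 2 Control embryos of each sex, with 14 and 16 kept cells in XX and 13 and 22 in XY. The extraction text of the XY cells speaks of female gonads. The Y-linked genes Uba1y, Eif2s3y and Ddx3y had no count in the XX ECKO embryos and were present in both XY ECKO embryos, with Uba1y at 28.1 and 11.6 CPM, counts scaled to a common library size. XX and XY cells lie in separate count tables, so sex and table cannot be told apart in any difference described here.

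EED belongs to Polycomb repressive complex 2 (PRC2), a chromatin complex that methylates histone H3 and holds many developmental genes silent. In the fetal ovary, retinoic acid and bone morphogenetic protein (BMP) signals act on germ cells and induce Stra8, the gatekeeper of meiotic entry. Its product and its partner MEIOSIN switch on genes of the meiotic chromosome axis such as Sycp3. In the fetal testis, retinoic acid is broken down, and germ cells pass through a phase of signalling by Nodal, a ligand of the transforming growth factor beta family. Lefty1 and Lefty2 encode secreted inhibitors of Nodal and are induced by it.

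The 250 bases before the start of Stra8 and of Sycp3 are shown because these genes mark the early and the later step of meiotic entry and their cells were shared differently between the sexes. The sequences are from RefSeq on GRCm38.p6 and lie on the plus strand, at chr6:34920698-34920947 for Stra8 and chr10:88459337-88459586 for Sycp3. Capitals mark AGGTCA, the core element bound by retinoic acid receptors and other nuclear receptors, and CACGTG, an E-box bound by basic helix-loop-helix factors.

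Stra8: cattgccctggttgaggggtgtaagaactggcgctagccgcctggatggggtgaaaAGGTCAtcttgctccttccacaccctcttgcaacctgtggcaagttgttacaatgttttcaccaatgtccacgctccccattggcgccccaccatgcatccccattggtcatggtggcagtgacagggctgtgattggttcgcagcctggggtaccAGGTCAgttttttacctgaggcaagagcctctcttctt

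Sycp3: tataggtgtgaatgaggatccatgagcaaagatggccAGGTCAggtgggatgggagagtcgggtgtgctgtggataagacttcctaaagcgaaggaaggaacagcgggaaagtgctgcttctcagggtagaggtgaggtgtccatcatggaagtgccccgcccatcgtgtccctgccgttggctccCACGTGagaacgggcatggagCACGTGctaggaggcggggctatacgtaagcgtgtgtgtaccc

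In the Stra8 sequence AGGTCA stood 194 to 189 and 38 to 33 bases before the start. In the Sycp3 sequence CACGTG stood 64 to 59 and 43 to 38 bases before the start, and AGGTCA 213 to 208 bases before it. Searched on both strands, AGGTCA occurred in 14% of 32851 promoter windows of this length and at least 2 times in 1.36%. CACGTG, its own reverse complement, occurred in 6.02% and at least 2 times in 0.429%. A match is a run of letters and does not show that a factor binds there.

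The kept ECKO cells carried germ cell transcripts. Dazl or Ddx4, RNA-binding protein genes of germ cells, reached 10 CPM in all 13 cells of XX embryo A, 12 of 13 of XX embryo B, 16 of 18 of XY embryo A and 14 of 18 of XY embryo B. Dppa3, an early germ cell gene, reached it in 12, 12, 18 and 18 cells of XX embryos A and B and XY embryos A and B. Median depth per cell was 1998464 and 1422489 counts in the XX and 1121573 and 1061912 counts in the XY embryos, so depth was higher in XX by the median. The shallowest kept cell had 407526 and 70194 counts in XX embryos A and B and 248922 and 403090 counts in XY embryos A and B. Depth was thus not higher in every XX cell. No 2 kept cells held identical counts. Eed itself stood at 14 and 22 CPM in the XX and 21.7 and 7.10 CPM in the XY ECKO embryos, against 40.7 to 62.1 CPM in the 4 Controls. Where in the gene these reads lie was not analysed here. Markers of other gonadal cells were low but not even. Their summed CPM in XX A, XX B, XY A and XY B was 169, 302, 160 and 128 for supporting cells, 199, 509, 51.0 and 124 for interstitial cells and 29.2, 24, 43.2 and 137 for endothelial cells. Blood markers stayed between 0 and 4.07 CPM, and 12 of that list's genes had no count in any ECKO embryo.

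A pair of XX ECKO cells weigh heavily on single genes. 1 cell of XX ECKO embryo B, with 1885863 counts, held 89.7% of that embryo's interstitial marker sum, with Pdgfra, a receptor of mesenchymal cells, at 1388 CPM and Pou5f1 at 0. It also held Wt1 at 406 CPM, Snai2 at 965 CPM and Col3a1 at 445 CPM. Of germ cell genes it held Ddx4 at 41.9 CPM, but Dazl at 2.12, Dppa3 at 1.06, Kit at 4.24 and Tfap2c at 0 CPM. Stra8 stood at 18.0 CPM and Sycp3 at 0 in it. By Ddx4 and Stra8 this cell counts among those of XX embryo B that reached 10 CPM. The deepest cell of XX ECKO embryo A, with 3571435 counts, held 100% of that embryo's Nodal and 96.5% of its Lefty2. It bears the number of a cell whose title says ECKO and whose genotype label says wild type. The columns do not give the embryo number, so this cell is 1 of 2 candidates, of which it alone was kept. Without the first of these cells, XX embryo B had a supporting marker sum of 125 CPM and an interstitial marker sum of 59.7 CPM.

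Counts were summed per embryo and the 8 embryos were fitted together with edgeR's quasi-likelihood test. No autosomal gene of 13395 tested passed an adjusted p of 0.05 between XX ECKO and XY ECKO embryos (0%). At an unadjusted p under 0.05, 344 genes were higher in XX (2.57%) and 492 lower (3.67%). DESeq2 called 138 higher (1.16%) and 163 lower (1.36%) of 11946 genes with an adjusted p. With 1 of the 8 embryos left out, edgeR called 2 genes without XX ECKO B or XY ECKO B, 8 to 16 without XX ECKO A, XY ECKO A or either XY Control, and 23 and 25 without XX Control B and A. Lefty1 passed in 8 of those 8 fits and Wnt3 in 7, Rps6kl1, Trim47 and Id2 in 5, and Id1 in 4, although none passed with all embryos in. The same contrast between Control embryos gave 5 calls (0.0373%). Phlda2 and Cldn6 were higher in XX, and 3 genes were lower, among them Lefty1 and Krt42. With 2 embryos against 2 the smallest two-sided exact permutation p is 0.333, so no single-gene permutation test could pass. The autosomal median log2 fold change, XX minus XY, was -0.02, and that of X-linked genes 0.75 in ECKO and 0.49 in Control embryos. The CPM of the 2 XX and the 2 XY ECKO embryos did not overlap for 2285 autosomal genes with XX higher (17.1%) and 2487 with XX lower (18.6%). Nothing below is therefore called a change between the sexes, and levels, shares of cells and fitted differences are given as measured.

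The share of cells at 10 CPM or more was set apart for a few genes. Of 13963 autosomal genes that reached 10 CPM in any kept ECKO cell, 2 had both XX embryos at least 50 percentage points above both XY embryos (0.0143%), namely Stra8 and Id1. In the other direction 8 did (0.0573%), among them Lefty2, Lefty1, Nodal, Wnt3, Ptgs1, L1td1 and Rbm26. In Control embryos the same rule gave 1 gene with XX higher (0.00795%) and 8 lower (0.0636%) of 12577.

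**Figure D1:**
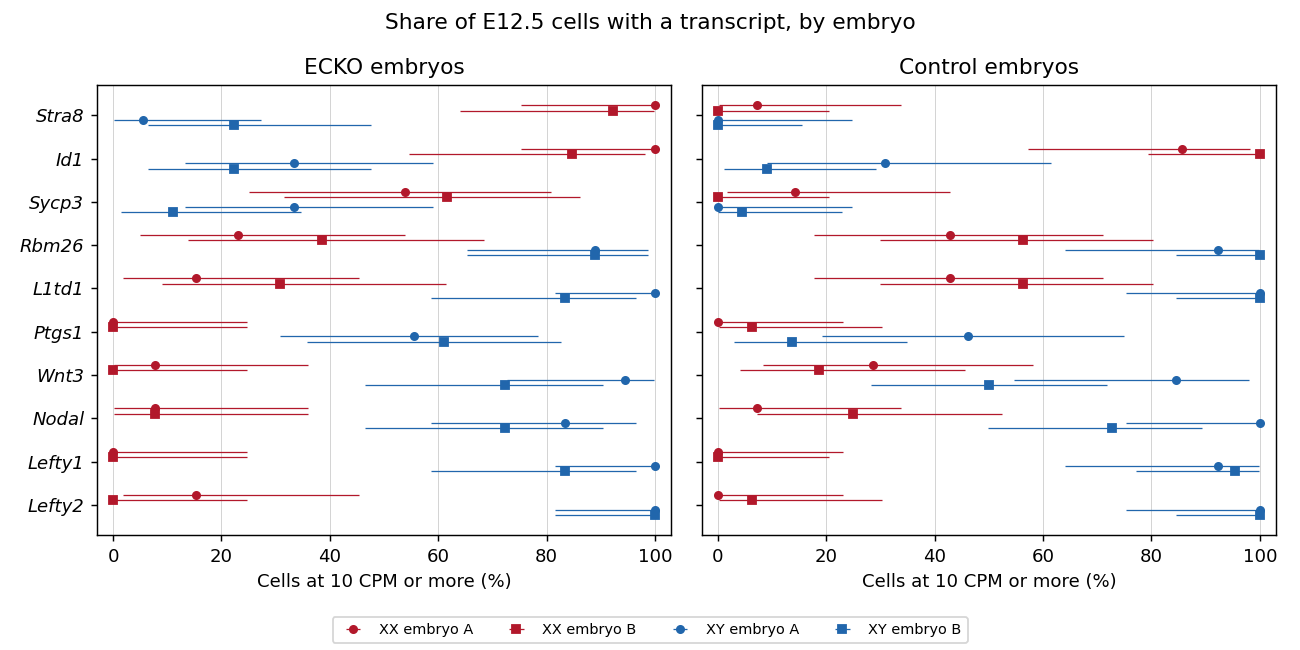
Share of kept cells at 10 CPM or more (x axis, percent) for genes set apart by 50 points in ECKO embryos and for Sycp3, with 1 marker per embryo, ECKO on the left and Control on the right. Lines are exact 95% Clopper-Pearson intervals, which cover the sampling of cells within an embryo only. Stra8 separates the sexes in ECKO embryos and lies at 7.14% or less in every Control embryo, while Lefty1 and Lefty2 lie at 83.3% or more in every XY embryo of both genotypes.

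Stra8 was the meiotic gene whose share of cells lay apart by 50 points. Its level was 286 and 147 CPM in the XX ECKO embryos and 4.01 and 25.9 CPM in the XY ECKO embryos, so the groups did not overlap. It reached 10 CPM in 13 of 13 cells (100%, 95% interval 75.3 to 100) and 12 of 13 cells (92.3%, 64.0 to 99.8) in XX. In XY it did so in 1 of 18 (5.56%, 0.141 to 27.3) and 4 of 18 cells (22.2%, 6.41 to 47.6). Within XX ECKO cells the level ran from 77.7 to 543 CPM in embryo A, with a median of 282, and from 0 to 600 CPM in embryo B, with a median of 223. The median XY ECKO cell had 0 in both embryos. The Controls gave 5.09 and 0.0368 CPM in XX and 0 in both XY embryos. Thinned to 50000 counts a cell, any Stra8 count was found in 100% and 92.3% of XX and 16.7% and 16.7% of XY cells. The fitted log2 fold change, XX minus XY, was 3.85 (SE 1.46) and did not pass (adjusted p = 0.759 by edgeR and 0.48 by DESeq2). 1 cell carried 65.3% of the Stra8 counts of XY embryo B. Stra8 passed in the fits that left out XX Control embryo A or B, the lowest adjusted p being 0.0384.

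Sycp3, which encodes a lateral element protein of the synaptonemal complex, overlapped by level. Its level was 15.7 and 22.5 CPM in the XX and 23 and 5.37 CPM in the XY ECKO embryos, which overlap. It reached 10 CPM in 7 of 13 (53.8%) and 8 of 13 XX cells (61.5%) and in 6 of 18 (33.3%) and 2 of 18 XY cells (11.1%). In cells thinned to 50000 counts the shares with any count, another cutoff at a lower depth, were 23.1% and 38.5% in XX and 22.2% and 27.8% in XY, which overlap. At 5 CPM the shares were 76.9% and 69.2% in XX and 44.4% and 27.8% in XY, and at 20 CPM and in stricter cells both XX shares likewise lay above both XY shares. The fitted difference was 0.43 (SE 1.22, adjusted p = 0.982), and it stood at -0.27 without XY ECKO embryo B.

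The other meiotic genes were carried by both sexes. Sycp1, the transverse filament gene, stood at 16.3 and 15.1 CPM in XX against 52.3 and 12 CPM in XY, and 57.6% of the counts of XY embryo A came from 1 cell. Rec8, the meiotic cohesin gene, stood at 83.3 and 78.0 CPM in XX against 37.1 and 35.3 CPM in XY, above the 5.98 to 14.1 CPM of the 4 Controls (XX minus XY 1.15, SE 0.61, adjusted p = 0.759). Dmc1, the meiotic recombinase gene, stood at 6.70 and 6.57 CPM in XX against 1.55 and 4.53 CPM in XY. Syce1, a central element gene, stood at 219 and 271 against 171 and 136 CPM. Rec8, Dmc1 and Syce1 thus lay apart by level as Stra8 did, and of the list 5 genes lay apart with XX higher and 7 with XX lower, where 17.1% and 18.6% of all autosomal genes did. Of 30 meiotic genes tested, none passed, and at an unadjusted p under 0.05 Stra8 alone was higher and none was lower. At that p, 2.57% of all autosomal genes were higher and 3.67% lower. The list's median log2 fold change was 0.18, beside -0.02 over all autosomal genes and 0.43 for the list in Controls. A median XX ECKO cell carried 12 of 33 autosomal list genes in either embryo, and a median XY ECKO cell 10 in either, against 8 to 8.5 in the Control embryos. At 50000 counts a cell the medians were 11 and 9 in XX and 9 and 10 in XY, which overlap.

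Several genes of retinoic acid handling and response stood higher in XX. Crabp2, a retinoic acid binding protein gene, stood at 314 and 151 CPM in the XX and 56.0 and 23.9 CPM in the XY ECKO embryos, and at 2.18 to 12.9 CPM in Controls. The difference was 2.54 (SE 0.69, adjusted p = 0.57 by edgeR, 0.0165 by DESeq2). Rarb, a retinoic acid receptor gene that is itself induced by retinoic acid, stood at 26.5 and 10.7 CPM in XX against 0.501 and 0.184 CPM in XY (5.75, SE 2.07, adjusted p = 0.759, DESeq2 0.005). It was concentrated, with 71.8% and 53.7% of the XX counts in 1 cell of each embryo. Dhrs3, Cyp26a1 and Stra6, which reduce retinal, break down retinoic acid and take up retinol, had no count in XY ECKO embryos. In XX ECKO embryos they stood at 10.7 and 0.722, 4.49 and 4.34, and 3.40 and 3.01 CPM. Of 18 list genes tested none passed, and 6 were higher in XX and none lower at an unadjusted p under 0.05: these 5 and Stra8, which the list holds. Of all autosomal genes, 2.57% were higher and 3.67% lower at that p. By level, 7 lay apart with XX higher and 3 with XX lower, where 17.1% and 18.6% of all autosomal genes did. The list median was 0.88, beside 0.25 in Controls. In stricter cells the Rarb difference was 4.74.

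Some BMP response genes stood higher in XX ECKO cells. Id1, an inhibitor of differentiation and direct BMP target, stood at 461 and 418 CPM in the XX and 35.9 and 22 CPM in the XY ECKO embryos. It reached 10 CPM in 13 of 13 and 11 of 13 XX cells and in 6 of 18 and 4 of 18 XY cells. The difference was 3.93 (SE 0.71, adjusted p = 0.261 by edgeR, 2.11e-06 by DESeq2). Controls showed a like gap, with 472 and 606 CPM in XX against 57.1 and 11 CPM in XY, and the interaction of sex and genotype was -0.05 (SE 0.89). Id2, of the same family, stood at 200 and 274 CPM in XX against 22 and 3.28 CPM in XY ECKO embryos (4.23, SE 0.81, adjusted p = 0.261, DESeq2 7.57e-06), and the interstitial-marked cell held 56.0% of the counts of XX embryo B, which stood at 143 CPM without it. Msx2, a homeobox gene induced by BMP, stood at 300 and 120 CPM in XX against 26.6 and 60.3 CPM in XY.

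Of 18 BMP list genes, all tested, none passed, and 6 were higher in XX at an unadjusted p under 0.05 with none lower. Besides Id1, Id2 and Msx2 these were Msx1 (353 and 42.7 against 4.81 and 20.6 CPM), Gata2 (96.0 and 56.6 against 1.35 and 17.5 CPM) and Zglp1 (70.8 and 47.8 against 25.5 and 2.83 CPM). Zglp1 is known as a regulator that acts with BMP in female germ cells. The list median was 1.68, and 1.05 without the interstitial-marked cell, beside 0.96 in Controls. By level, 8 list genes lay apart with XX higher and 1 with XX lower, where 17.1% and 18.6% of all autosomal genes did. By unadjusted p, 2.57% of all autosomal genes were higher and 3.67% lower. The summed CPM of the list was 4464 and 3372 in XX Controls against 1425 and 1363 in XY Controls. A median cell carried 13 and 10 of the 18 genes in XX and 7 in both XY ECKO embryos, and at 50000 counts a cell 13 and 9 against 6 and 7.

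**Figure D2:**
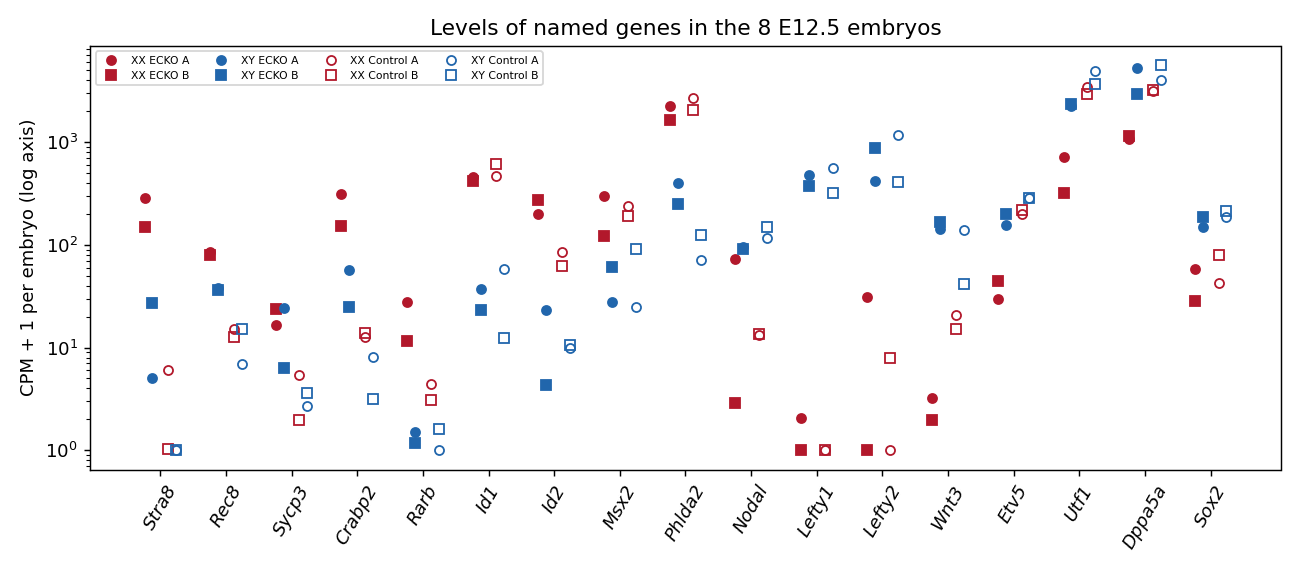
CPM plus 1 per embryo on a log axis for named genes, with filled markers for ECKO and open markers for Control, red for XX and blue for XY, circles for embryo A and squares for embryo B. Stra8, Crabp2 and Id1 stand higher in both XX ECKO embryos than in both XY ECKO embryos, and Lefty1, Wnt3 and Utf1 lower, while Sycp3 overlaps.

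Nodal and its Lefty inhibitors had the opposite order. Lefty1 stood at 1.05 and 0 CPM in the XX ECKO and 476 and 373 CPM in the XY ECKO embryos, a difference of -9.53 (SE 1.19) that missed the threshold in edgeR (adjusted p = 0.0972) and passed in DESeq2 (0.000187). Its 28 XX counts all came from the deepest cell of XX embryo A, and without that cell Lefty1 passed (adjusted p = 0.00138). No XX ECKO cell reached 10 CPM, and 0 of 13 cells still allows for 23.1% in each embryo, while 18 of 18 and 15 of 18 XY ECKO cells did. Lefty2 stood at 30.1 and 0 CPM in XX against 420 and 878 CPM in XY (-5.42, SE 2.10, adjusted p = 0.759). Without the deepest cell, XX embryo A stood at 1.24 CPM and the difference at -9.94 (SE 2.08, adjusted p = 0.346). For Lefty2 all 36 XY ECKO cells reached 10 CPM against 2 of 13 and 0 of 13 XX cells. In Control embryos Lefty1 had no count in XX and stood at 563 and 321 CPM in XY, at least 7278-fold higher in XY, and passed (adjusted p = 0.0257).

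The level of the ligand gene rested on 1 XX cell. Nodal stood at 71.3 and 1.87 CPM in XX against 94.4 and 90.4 CPM in XY ECKO embryos, a difference of -1.33 (SE 1.05, adjusted p = 0.838). Without the deepest cell, XX embryo A stood at 0 CPM and the difference at -6.66 (SE 1.30, adjusted p = 0.269). By share, 1 of 13 cells in each XX embryo and 15 of 18 and 13 of 18 XY cells reached 10 CPM.

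Of 16 Nodal list genes tested none passed, and 5 were lower in XX at an unadjusted p under 0.05 with none higher, among them Lefty1, Lefty2, Tdgf1 and Fgf8. Tdgf1, the Nodal co-receptor Cripto, stood at 2.21 and 0 CPM in XX against 14.7 and 39.3 CPM in XY. The list median was -0.05, beside -0.02 over all autosomal genes and -0.91 for the list in Controls. By level, 6 list genes lay apart with XX lower and 2 with XX higher, where 18.6% and 17.1% of all autosomal genes did. By unadjusted p, 3.67% of all autosomal genes were lower and 2.57% higher. Foxh1, the DNA-binding partner of the Smads, stood at 184 and 60.5 CPM in XX against 99.3 and 132 CPM in XY.

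Over the 17 genes of the Nodal list, XX ECKO cells carried 0 to 8 and XY ECKO cells 5 to 11 at 10 CPM or more, which overlap. Cell by cell, the sexes hardly overlapped for the set of Nodal, Lefty1 and Lefty2. All 3 are among the genes set apart above by share at this cutoff, so that gap follows from the rule. None of the 3 reached 10 CPM in 11 of 13 cells of XX ECKO embryo A and 12 of 13 of XX ECKO embryo B. In each of these embryos 1 cell carried 1 of them, and in embryo A the deepest cell carried 2. In XY ECKO embryo A, 3 cells carried 2 and 15 cells all 3. In XY embryo B, 2 cells carried 1, 4 carried 2 and 12 carried all 3. Stra8 and this set were not exclusive. The 5 XY ECKO cells with Stra8 at 10 CPM or more carried 2 or 3 of the set. The one with the most Stra8, at 680 CPM, had Lefty2 at 448 CPM and Nodal at 273 CPM, with Lefty1 and Id1 at 0. Id1 was at 0 in 4 of the 5 and at 64.5 CPM in the other. In the same way the deepest XX ECKO cell had Stra8 at 543 CPM beside Nodal at 534 and Lefty2 at 217 CPM, with Id1 at 77.0 CPM and Uba1y at 0. Whether any of these wells held more than 1 cell was not tested.

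**Figure D3:**
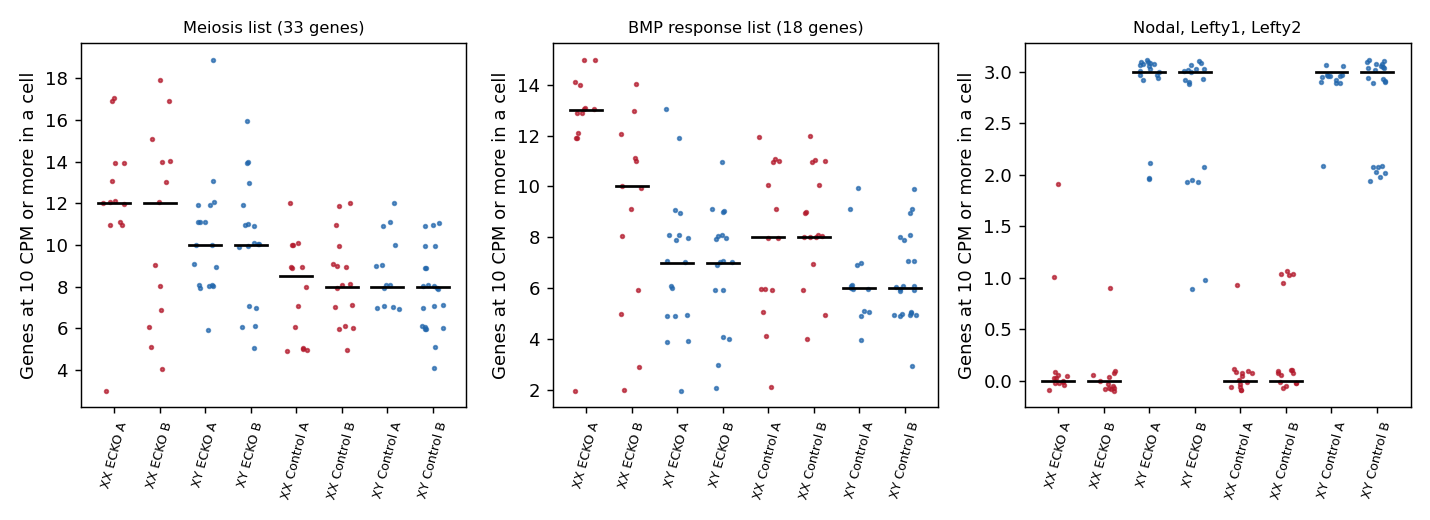
Number of genes at 10 CPM or more in each kept cell (y axis) by embryo (x axis), for 33 autosomal meiosis genes, 18 BMP response genes and the set of Nodal, Lefty1 and Lefty2. Each point is a cell, moved slightly at random so that points do not hide each other, and bars are medians. XY ECKO cells carry 1 to 3 of the Nodal set and XX ECKO cells 0 or 1 with 1 exception at 2, while the meiosis counts overlap. The Nodal set genes are among those set apart by share at this cutoff, so their gap follows from that rule.

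Wnt3, a Wnt ligand gene, stood out beside the Nodal group. It stood at 2.24 and 0.964 CPM in XX against 140 and 165 CPM in XY ECKO embryos, a difference of -6.55 (SE 0.82, adjusted p = 0.0972 by edgeR, 1.99e-15 by DESeq2). It reached 10 CPM in 1 of 13 and 0 of 13 XX cells and in 17 of 18 and 13 of 18 XY cells. In Controls it stood at 19.9 and 14.2 CPM in XX against 137 and 40.2 CPM in XY, and the interaction was -4.17 (SE 0.95, adjusted p = 0.741 by edgeR, 0.00569 by DESeq2). Ptgs1, a cyclooxygenase gene, had no count in XX ECKO embryos and 38.9 and 65.4 CPM in XY, at least 731-fold higher in XY, with 10 of 18 and 11 of 18 cells at 10 CPM. Trim67 likewise had no count in XX and 19.8 and 30.9 CPM in XY, at least 354-fold higher.

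Further genes lower in XX ECKO embryos by the rule for named genes also did not pass. Trim47 stood at 6.17 and 12.2 against 136 and 155 CPM (-3.99, SE 0.59, adjusted p = 0.137), and Rps6kl1 at 7.56 and 12 against 123 and 191 CPM (-3.97, SE 0.60, adjusted p = 0.137). Lrrfip1 stood at 15.4 and 17.3 against 169 and 214 CPM. Etv5, a transcription factor gene that answers fibroblast growth factor signals, stood at 28.9 and 43.7 against 155 and 201 CPM. In each of these the XX and XY embryos lay apart. Ap3b2 (-2.56) and Fblim1 (-2.55) had smaller differences, and Apobec2 and Madcam1 had at most 1 XX embryo with a count, with XY levels of 6.07 and 15.2, and 14.3 and 30.0 CPM. Madcam1 in XY embryo B came almost wholly, by 99.9%, from 1 cell. L1td1 stood at 5.20 and 45.7 against 142 and 124 CPM, and Rbm26 at 16.6 and 26.9 against 49 and 43.3 CPM.

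Some pluripotency genes stood lower in XX ECKO cells. Utf1, a chromatin factor gene of pluripotent and germ cells, stood at 721 and 319 CPM in XX against 2235 and 2360 CPM in XY (-2.14, SE 0.53, adjusted p = 0.488, DESeq2 0.000664). Dppa5a stood at 1060 and 1147 against 5267 and 2926 CPM (-1.89, SE 0.51), and Sox2, a core pluripotency factor gene, at 57.0 and 27.5 against 149 and 184 CPM (-1.98, SE 0.52). Of 26 list genes tested none passed, 7 were lower at an unadjusted p under 0.05 and 1, Fbxo15, was higher (40.3 and 93.5 against 21.7 and 23.9 CPM). The lower genes were Utf1, Sox2, Dppa5a, Tcl1, L1td1, Zfp42 and Tdgf1, and the list median was -1.0, beside 0.12 in Controls. Tdgf1 is also on the Nodal list and Tcl1 on the germ cell identity list. By level, 12 lay apart with XX lower and 3 with XX higher, where 18.6% and 17.1% of all autosomal genes did. By unadjusted p, 3.67% of all autosomal genes were lower and 2.57% higher. The list's summed CPM was 2918 and 2599 in XX and 7797 and 8134 in XY ECKO embryos, against 9026 to 10986 in the 4 Controls.

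Pou5f1, the gene behind the sorting reporter, overlapped between the sexes. It stood at 73.2 and 28.7 CPM in XX against 10.8 and 97.5 CPM in XY (-0.09, SE 0.82, adjusted p = 1), and 90.6% of the counts of XX embryo B came from 1 cell. Nanog stood at 25.1 and 7.47 against 13.9 and 68.2 CPM. Its difference was -1.33 (SE 0.80, adjusted p = 0.773), and -2.25 (SE 0.74, adjusted p = 0.73) without the deepest cell of XX embryo A, which then stood at 9.77 CPM.

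Germ cell genes were found in both sexes. Dazl stood at 408 and 264 CPM in XX against 326 and 139 CPM in XY, Ddx4 at 76.4 and 116 against 44.2 and 47.1 CPM, and Dppa3 at 414 and 380 against 755 and 456 CPM. Of 22 germ cell identity genes tested, 3 were lower in XX at an unadjusted p under 0.05 and none higher: Tcl1, Prdm1 and Nanos3. Prdm1, which encodes BLIMP1, stood at 12 and 17.4 against 41.0 and 52.6 CPM. Of the male germ cell list, Nanos3 alone of 22 tested was lower at that level (77.6 and 55.8 against 236 and 96.6 CPM). For the male germ cell list alone, that is close to the share over all autosomal genes, of which 3.67% were lower and 2.57% higher. Dnmt3l, a cofactor of new DNA methylation in male germ cells, reached 10 CPM in 3 and 2 of the 18 cells of the XY ECKO embryos and in none of 13 in each XX embryo, which allows up to 23.1%. Nanos2, the male germ cell fate gene, reached it in no cell, which allows up to 16.7% in each XY ECKO embryo. Of 17 DNA methylation genes tested, Tet1 (18.2 and 43.9 against 145 and 182 CPM), Trim28 (660 and 778 against 1586 and 1493 CPM) and Dnmt1 were lower in XX at an unadjusted p under 0.05 and none was higher. Without the interstitial-marked cell 1 was lower.

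Among imprinted genes, Phlda2, a maternally expressed growth regulator, stood at 2251 and 1655 CPM in XX against 401 and 248 CPM in XY ECKO embryos (2.59, SE 0.51, adjusted p = 0.289, DESeq2 2.37e-06). In Controls it stood at 2695 and 2057 CPM in XX against 70.9 and 125 CPM in XY and passed (4.60, adjusted p = 0.0257). The interaction was -2.01 (SE 0.69, adjusted p = 1), with the XY ECKO embryos above both XY Controls. Ascl2, another maternally expressed gene, stood at 95.2 and 50.3 against 24.3 and 14.8 CPM in ECKO embryos. Mest, a paternally expressed gene, stood at 27.2 and 193 against 16.8 and 5.96 CPM, but the interstitial-marked cell held 98.4% of the counts of XX embryo B, which stood at 3.65 CPM without it (0.44, SE 1.12). Of 40 imprinted genes tested, 5 were higher and 1, Nespas, lower in XX at an unadjusted p under 0.05, and the list median was 0.81, beside 0.56 in Controls. Without that cell the counts were 4 and 1, with a median of 0.14. With all cells in, 2.57% of all autosomal genes were higher and 3.67% lower at that p.

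Developmental transcription factor genes, many of them known Polycomb targets, were uneven. Of 39 tested none passed, with a list median of 1.58, beside 0.08 in Controls. At an unadjusted p under 0.05, 8 were higher and 3 lower in XX ECKO embryos, against 2.57% and 3.67% of all autosomal genes. Of the 8, Msx1, Msx2 and Gata2 are also on the BMP list and were counted there. Hand1, of extraembryonic and heart lineages, stood at 92.7 and 17.8 against 4.86 and 3.09 CPM, and Sox17, an endoderm gene, at 8.16 and 24.8 CPM in XX with no count in XY. Lhx1, which is bound up with Nodal signalling in the early embryo, stood at 0.374 and 3.49 against 85.0 and 42.4 CPM, and Controls held it in XX embryo B too, at 84.0 CPM. Hox genes were low in both sexes, with a summed CPM of 111 and 145 in XX and 60.1 and 79.0 in XY. Of 20 Hox genes tested, Hoxa2 alone was higher and Hoxa11 alone lower at that level, close to the shares over all autosomal genes. Hoxa2 came from 1 cell in each XX embryo, and without the interstitial-marked cell the Hox sum of XX embryo B was 46.0 CPM.

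The rule for named genes also gave XX-high genes outside these lists, several of which rest on single cells. Sema5b, a semaphorin gene, stood at 16.7 and 105 CPM in XX with a single count in XY, but 90.9% of the counts of XX embryo B were in the interstitial-marked cell, and that embryo stood at 11.4 CPM without it. Pdgfra (0.898 and 158 CPM), Calb1 (0.673 and 109 CPM) and Tpm4 (22.1 and 416 CPM) had 99.7%, 99.9% and 97.4% of those of embryo B in the same cell. Cers2, a ceramide synthase gene, stood at 55.9 and 130 CPM with that cell and 55.5 and 45.0 CPM without it, against 10.8 and 20.5 CPM in XY.

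Further XX-high genes reached 10 CPM in 3 or more cells of each XX embryo, some with most counts in 1 cell. Aldh3a2, an aldehyde dehydrogenase gene, stood at 47.2 and 30.3 against 3.16 and 3.09 CPM (3.63, SE 0.80, adjusted p = 0.387), with 68.6% of the counts of XX embryo A in 1 cell, and its difference was 2.88 in stricter cells. Capza2, an actin capping gene, stood at 149 and 202 against 50.7 and 33.3 CPM, and most cells of both sexes reached 10 CPM, 12 and 10 of 13 in XX against 14 and 16 of 18 in XY. Parp6 stood at 63.3 and 31.7 against 2.31 and 4.97 CPM and Gas1 at 32.2 and 12.2 against 1.85 and 0.552 CPM, with 88.3% and 50.9% of the counts of XX embryo A in 1 cell. In stricter cells the Parp6 difference was 2.44 in place of 3.70. By share of cells, Acp5, an acid phosphatase gene, reached 10 CPM in 10 and 6 of the 13 cells of the XX ECKO embryos, against 0 and 1 of 18 in XY, and it had no count in any Control embryo. Shisa8 reached it in 8 and 7 XX and 2 and 2 XY cells, Pwwp2b in 6 and 6 against 0 and 1, Tnni2 in 7 and 9 against 3 and 2, and H2afy2 in 10 and 7 against 3 and 1. H2afy2 stood at 29.2 CPM in XX embryo B and at 13.4 CPM without the interstitial-marked cell.

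Lists on cell state differed in how many of their genes lay at a low p. Of all autosomal genes, 2.57% were higher and 3.67% lower in XX at an unadjusted p under 0.05. Of 19 immediate early and stress genes tested, 6 were higher in XX and none lower at an unadjusted p under 0.05, and without the interstitial-marked cell 3 were higher and 1 lower. Among them Egr1 stood at 25.7 and 183 against 7.32 and 6.04 CPM, with XX embryo B at 68.0 CPM without that cell, and Hspa1b at 229 and 24.9 against 5.82 and 16.1 CPM. Jun stood at 404 and 7.95 against 11.1 and 16.2 CPM (3.91), with a difference of 2.74 in stricter cells and -0.77 without XX ECKO embryo A. No gene of the Polycomb subunit (10 tested), cell cycle inhibitor (10), DNA replication and mitosis (36) or p53 (24) lists lay at an unadjusted p under 0.05. Cdkn1a, the p21 gene, stood at 175 and 145 against 395 and 266 CPM. Rrm2, a ribonucleotide reductase gene of the replicating cell, stood at 404 and 384 against 221 and 260 CPM, and Ccnd3 at 463 and 148 against 103 and 200 CPM. Of 32 glycolysis and sterol genes Scd1 alone was higher at that level, close to the share over all autosomal genes. Among markers of other cells, 3 of 15 supporting (Amhr2, Dmrt1, Cst8) and 2 of 7 interstitial genes (Pdgfra, Vim) were higher, and 1 of 7 endothelial genes (Cldn5) was lower. Cst8 and Amhr2 in XX embryo B came from 1 cell, and without the interstitial-marked cell 1 supporting and no interstitial gene lay at that level.

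Whether the sex difference itself differed between ECKO and Control embryos was tested as an interaction. No autosomal gene of 13395 passed in edgeR (0%), the smallest adjusted p being 0.502. Of these genes 661 lay at an unadjusted p under 0.05, close to the share of 0.05 that would lie there with no difference at all. DESeq2 called 194 of 13156 autosomal genes with an adjusted p, of which 128 were more positive in ECKO embryos. Leaving out XX Control embryo B gave 36 calls in edgeR, and each other embryo 0 to 10. Palm3, Rhog and Mrm1 had almost no count in XX Controls and 13.9 and 21, 42.6 and 19.2, and 28.4 and 7.17 CPM in XX ECKO embryos. Their XY levels are not given here, so the sex difference cannot be read from these values. Palm3 in XX ECKO embryo B stood at 1.65 CPM without the interstitial-marked cell. Krt42 stood at 10.6 and 9.88 against 55.4 and 68.9 CPM in ECKO embryos and at 0.0341 and 0 against 44.4 and 12.3 CPM in Controls (adjusted p of the interaction 0.567), and XX ECKO embryo A stood at 3.60 CPM without its deepest cell. In the other direction Cldn6, a tight junction gene, stood at 172 and 52.2 against 45.2 and 58.2 CPM in ECKO embryos, whereas in Controls it was seen in XX alone, at 18.5 and 18.7 CPM. Its interaction had an adjusted p of 0.502, and XX ECKO embryo A stood at 112 CPM without its deepest cell. Fitted interaction sizes are not given for genes with a group at 0 or at 1 count. Apobec2, Madcam1, Mapk8ip2 and Gprc5a followed, each with an adjusted p of 0.741. The Stra8 interaction did not pass (adjusted p = 1), with no count in XY Controls and a single count in XX Control embryo B. On log2(CPM + 1) its difference was 4.15 in ECKO and 1.33 in Control embryos, with no test. By the codes in the columns, XX Control embryo A and XX ECKO embryo A share a stem, which the labels do not explain, and the fit treats them as unrelated.

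**Figure D4:**
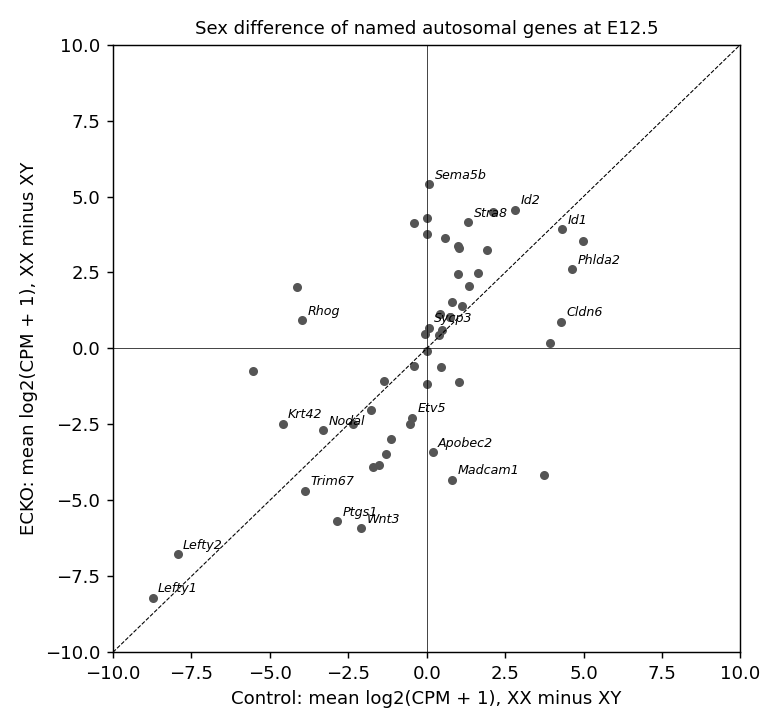
Difference of the mean log2(CPM + 1), XX minus XY, in Control embryos (x axis) and ECKO embryos (y axis) for named autosomal genes, with 1 point per gene, each a mean of 2 embryos against 2, and the dashed line marking equal differences. Lefty1 and Lefty2 lie far below 0 on both axes and Id1 and Phlda2 above 0 on both, while Sema5b and Stra8 lie at 5.40 and 4.15 on the ECKO axis and at 0.08 and 1.33 on the Control axis.

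A day earlier, in bulk germ cell libraries of 4 XX and 4 XY ECKO samples at E11.5, edgeR called 150 of 13603 autosomal genes between the sexes (1.1%), 82 higher and 68 lower in XX. It called 81, 84 and 95 without XY ECKO library 3, XX ECKO library 1 and XY ECKO library 1. Depth went with sex, at 1323850 to 7559310 counts in the XX ECKO and 8607927 to 13139650 counts in the XY ECKO libraries. The contrast between E11.5 Control libraries was not run. None of the genes named next passed. Stra8 stood at 65.7, 53.4, 25.3 and 1.98 CPM in XX against 6.67, 15.4, 6.79 and 14.5 CPM in XY, so that 3 of 4 XX libraries lay above all XY libraries and 1 below (1.75, SE 0.71, adjusted p = 0.275). Nodal stood at 24.1, 13.2, 17.4 and 11.6 CPM in XX against 34.4, 25.7, 41.3 and 37.9 CPM in XY, without overlap (-1.05, SE 0.40, adjusted p = 0.238). Lefty2 ran from 92.5 to 179 CPM in XX against 135 to 262 CPM in XY (-0.52), and Lefty1 from 10.8 to 16.8 and 4.36 to 42.3 CPM, both overlapping. Id1 stood at 25.7 to 36.4 CPM in XX against 15.3 to 28.9 CPM in XY (0.53, SE 0.45), and Phlda2 at 98.8 to 239 and 158 to 223 CPM (0.07, SE 0.27). Sycp3 stood at 2.31 to 19.7 CPM in XX against 3.78 to 33.3 CPM in XY. In such bulk samples fewer cells with a transcript and less RNA per cell cannot be told apart. The stages differ in assay and processing, and the difference between them was not tested.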

How the data were processed

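Raw counts per gene symbol (24391 symbols in each table) are the deposited values: 1 column per E12.5 cell or E11.5 bulk library, in separate XX and XY tables. The mm9 build, HISAT2 and edgeR are named per the submitters' processing notes. Which program and annotation did the counting, and whether strand was used, is not given in the sources used here, so reads of overlapping genes, antisense genes and near-identical copies cannot be told apart. The bisulfite and E13.5 libraries were not analysed here. Some genes that the rule for named genes gives are not reported here, although counts include them.

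Cells were kept at 50000 counts and 1500 genes and summed per embryo, since cells are not replicates. Named genes, 21 gene lists and cell rules were chosen with earlier results of these data known. All 8 E12.5 embryos were fitted together in edgeR 4.0.16 (R 4.3.3) by the quasi-likelihood method after filterByExpr, with TMM factors, and the 15 E11.5 libraries in another fit. Genes were called at a Benjamini-Hochberg adjusted p under 0.05 over all genes tested. An adjusted p with no tool named is edgeR's. CPM of genes used TMM factors and summed CPM of lists total counts. Embryo totals ran from 14162553 to 28753681 counts, the 65 cells left out had medians of 724 to 7347 counts by embryo, and the E11.5 libraries held 415291 to 14974853 counts. Beside a share of 0 stands what 3 cells would come to. A fold against no counts used a floor of 3 counts over the group. Intervals and floors cover counting error only, as PCR copies cannot be told from separate molecules here. The p-values measure the spread between embryos or libraries as labelled. Methods were tested on simulated data.

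Named genes were 15 set genes, the 12 autosomal genes in each direction by unadjusted p with embryos apart and at least 10 CPM in the higher group (none was called), the 8 in each direction by gap of shares, up to 3 of each list by smallest p, and the 5 in each direction by interaction p. Genes outside this rule that are named were chosen after their values were seen: list members at an unadjusted p under 0.05, Foxh1, Ascl2, and the Y-linked genes. Alternatives were DESeq2 1.42.0, DESeq2 size factors, total counts, no low-count filter, 200000 counts and 3000 genes a cell, limma 3.58.1 on the mean CPM of cells with log2(CPM + 1), the embryos of 1 genotype alone, each embryo left out, and other share cutoffs. Total counts, cells without Dazl and Ddx4, and the interstitial-marked cell were added after seeing the data.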

Additional observations from a re-analysis of the deposited data

Results flagged for a closer look

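At E11.5, 24 groups of 4 libraries were screened for a library far from the others, and chance flags about 1 in 20 groups. Id2, the BMP response gene, had 1 XX ECKO library at 48.9 CPM with the others at 14.5 to 17.8 CPM. Lefty1, the Nodal inhibitor, had 1 XY ECKO library at 42.3 CPM with the others at 4.36 to 9.68 CPM. Wnt3 had 1 XY ECKO library at 7.66 CPM with the others at 4.26 to 4.56 CPM. The 2 XY libraries are different ones, replicate 1 for Lefty1 and replicate 2 for Wnt3.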

How the results depend on the processing

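Between XX and XY ECKO embryos, edgeR called 0 autosomal genes with DESeq2 size factors, total counts, stricter cells, the 4 ECKO embryos alone, without cells lacking Dazl and Ddx4 and without the interstitial-marked cell. It called 118 with no low-count filter and 1, Lefty1, without the kept cell that may bear the conflicting label. Limma called 1, also Lefty1, DESeq2 301.0, and leaving out an embryo gave 2 to 25. In Control embryos the 5 calls became 328 in DESeq2, 138 with no low-count filter, 0 with the 4 Control embryos alone and 14 to 96 with an embryo left out. For the interaction, 0 became 194 in DESeq2, 82 with no low-count filter and 0 to 36 with an embryo left out. The cause of these shifts was not tested, and with an embryo left out the filter also kept more genes and the lone embryo was assumed to vary like the others. At E11.5, 150 became 442 in DESeq2, 236 with no low-count filter and 81 to 211 with a library left out. Of 97 named genes, none reversed in 962 fits under the other settings, and 8 reversed with an embryo left out. Their log2 fold changes then ran from -0.27 to 1.37 for Eed, -0.27 to 1.86 for Sycp3, -1.73 to 0.48 for Sycp1, -0.91 to 2.23 for Pou5f1, -2.45 to 0.23 for Nanog, -0.10 to 1.69 for Ddx25, -0.030 to 1.61 for Ccnd3 and -0.77 to 4.88 for Jun. The Stra8 share of XX ECKO embryo B was 100% with stricter cells. The Sycp3 share of XX ECKO embryo A was 23.1% in thinned cells, and at 20 CPM that of XX ECKO embryo B was 30.8%, that of XY ECKO embryo B 0% and that of XX Control embryo A 0%. The count of 10 genes with shares apart ran from 8 to 13. No paired analysis was possible at E12.5 because the columns carry embryo codes and no replicate numbers. The codes of XX Control embryo A and XX ECKO embryo A share a stem, and the labels do not say what it marks. No XX ECKO embryo shares one with an XY ECKO embryo. At E11.5 the deviations of same-numbered ECKO libraries correlated at -0.05, -0.01, 0.05 and 0.27. Those of ECKO libraries with unlike numbers ran from -0.20 to 0.16. So few values cannot show whether same-numbered libraries share more than a number. With the replicate number as a block 135 genes were called. With 2 embryos a group, a single cell can hold most of an embryo's counts of a gene that few cells carry.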
